A study of Mus musculus with 2 samples.

Results

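The Rtl1-antisense block is a run of 8 miRNA genes in the imprinted Dlk1-Dio3 region of mouse chromosome 12: Mir337, Mir540, Mir665, Mir431, Mir433, Mir127, Mir434 and Mir136. They were found by matching the gene identifiers of the count tables to these symbols in GENCODE M21. Of the 8, 7 have a row among the 1973 miRNA genes listed, and Mir136 has no row under its own identifier. Small RNA under 30 nt was sequenced from whole stomach of B6NCrl mouse embryos at embryonic day 15.5, pooled over both sexes and labelled healthy. The library of replicate 1 was made from 78 pooled embryos and that of replicate 2 from 62. Both belong to the same group, so the members are compared with each other and between the pools, and pooling leaves the spread between single embryos unmeasured.

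In the Dlk1-Dio3 region the miRNAs and long noncoding RNAs are expressed from the maternal chromosome, while the protein-coding genes Dlk1, Rtl1 and Dio3 are expressed mainly from the paternal one. Rtl1 derives from a retrotransposon and is needed in the fetal capillaries of the placenta and in fetal muscle. Several of the miRNAs lie antisense to it and are known to guide cleavage of its mRNA, so the maternal chromosome restrains a gene made from the paternal one.

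The 8 hairpins lie on the plus strand between 109585789 and 109595388 of mm10, a stretch of 9600 bases. It sits in the gap between the noncoding genes Meg3, whose end is 14062 bases upstream, and Rian, whose start is 8551 bases downstream. GENCODE M21 places 0 plus-strand genes other than miRNA genes over it, so no host transcript is annotated. Rtl1 runs on the minus strand from 109589193 to 109600330. Mir431, Mir433, Mir127, Mir434 and Mir136 lie wholly inside its single coding exon, on the other strand. Mir337, Mir540 and Mir665 lie outside Rtl1, between 2785 and 3307 bases past its 3′ end, and the first of them starts the block.

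The mature sequences are shown because the position of the hairpins fixes how they pair with Rtl1. All are from RefSeq on GRCm38.p6, whose 8 hairpins have the same start and end as in GENCODE M21. Written 5′ to 3′ with the seed (bases 2 to 8) in capitals, both arms of the 5 hairpins inside the coding exon of Rtl1 are as follows, in genome order.
miR-431-5p: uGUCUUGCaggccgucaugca
miR-431-3p: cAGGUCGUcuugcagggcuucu
miR-433-5p: uACGGUGAgccugucauuauuc
miR-433-3p: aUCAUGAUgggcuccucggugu
miR-127-5p: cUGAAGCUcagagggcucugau
miR-127-3p: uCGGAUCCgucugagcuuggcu
miR-434-5p: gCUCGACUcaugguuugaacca
miR-434-3p: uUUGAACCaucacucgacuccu
miR-136-5p: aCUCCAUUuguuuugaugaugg
miR-136-3p: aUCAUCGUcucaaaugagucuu

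All 10 of these arms had an exactly complementary site in the coding part of the Rtl1 transcript, as their antisense position requires, and the 6 arms of Mir337, Mir540 and Mir665 had 0 such sites in it. The site of miR-127-3p starts at base 2495 of the coding sequence and that of miR-431-5p at base 4925, counted from the first base of the start codon. They are shown for the 2 most abundant members, as DNA letters of the Rtl1 transcript with the match to the seed in capitals.
Rtl1 site of miR-127-3p: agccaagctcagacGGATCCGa
Rtl1 site of miR-431-5p: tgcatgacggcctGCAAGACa

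The members are not a seed family. The 16 arms of the 8 hairpins have 16 different seeds, and only miR-540-3p shares its seed with another mature mouse miRNA of RefSeq, miR-6915-5p. None of the 16 arms occurs whole in another RefSeq hairpin, so the copies that can cost a miRNA gene its reads were not found for these members. The 3p arms of the hairpins outside Rtl1 show how unlike these seeds are.
miR-337-3p: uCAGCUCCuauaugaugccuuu
miR-540-3p: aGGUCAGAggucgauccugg
miR-665-3p: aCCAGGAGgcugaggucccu

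Within a hairpin, the arms of Mir431 and of Mir434 repeat each other. The longest run of bases present in both arms had 10 bases in Mir431 and 9 in Mir434, against a median of 4 over the 678 mouse hairpins with both arms in RefSeq. Runs of at least 10 bases were found in 0.590% of these hairpins and runs of at least 9 in 1.33%. The shared run is in capitals here.
Mir431 5p arm: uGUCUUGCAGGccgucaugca
Mir431 3p arm: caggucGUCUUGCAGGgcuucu
Mir434 5p arm: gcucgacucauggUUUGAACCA
Mir434 3p arm: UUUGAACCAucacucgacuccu

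The libraries held 5988677 sense-strand counts over all miRNA genes (replicate 1) and 6675498 (replicate 2). Levels are given as CPM, each count divided by its library's sum and brought to a common scale, without division by length, since the mature arms have 20 to 26 bases. The deposited counts are per gene, so the arms of a hairpin are not told apart. Markers of the labelled tissue were present: all 8 epithelial genes of the marker list stood at 1000 CPM or more, and the smooth muscle genes Mir143 and Mir145a held 17.8% of counts in replicate 1 and 18.3% in replicate 2. In whole tissue, fewer cells making a miRNA and less of it per cell cannot be told apart. Intervals and limits below cover counting error only.

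All 7 counted members were well above the detection limit in both pools, and together they held 1.79% ± 0.0229 of the sense counts (SD, n = 2). By pool it was 1.81% for replicate 1, with a 95% Wilson interval of 1.80 to 1.82, and 1.78% for replicate 2, with an interval of 1.77 to 1.79. The members differed widely in level: the highest exceeded the lowest by 4.52 ± 0.14 on the log2(CPM + 1) scale (SD, n = 2), a ratio of 22.9. By mean level the median member stood at 1574 CPM. This is above the median within either pool, 1538 CPM for replicate 1 and 1338 CPM for replicate 2. Ranked by sense counts, 5 of the 7 members were among the 100 most abundant of all miRNA genes, with Mir433 at place 95. The ranking leaves out reads on the opposite strand of a listed row, such as 125007 at the row covering Mir378a. With such reads counted, places could be lower.

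Mir127, a miRNA whose loss alters the labyrinth of the mouse placenta, led the block. It had 54244 counts in replicate 1 and 60354 in replicate 2, or 9058 and 9041 CPM, a mean of 9049 ± 11.8 CPM (SD, n = 2). By sense counts, with opposite-strand reads left out, it ranked at place 22 of all 1973 genes. The levels in the pools were nearly equal with this scaling, and Mir127 alone made up 50.1% of the block's counts in replicate 1 and 50.9% in replicate 2.

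Mir431, known in mouse muscle as a promoter of regeneration, came next. It had 20306 counts (3391 CPM) in replicate 1 and 25254 counts (3783 CPM) in replicate 2, with a mean of 3587 ± 277 CPM. Its share of the block was 18.7% in replicate 1 and 21.3% in replicate 2. Within each library Mir127 exceeded Mir431, by a mean of 1.34 ± 0.11 on the log2 scale, so the order of the 2 held well beyond the spread between the pools.

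Mir434, known in mouse muscle cells for restraining apoptosis, was the member that differed most between the pools. It had 12215 counts (2040 CPM) in replicate 1 and 8932 counts (1338 CPM) in replicate 2, with a mean of 1689 ± 496 CPM. Its share of the block was 11.3% in replicate 1 and 7.53% in replicate 2, while the shares of the other 6 moved by far less in proportion, as the plot of shares shows.

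Mir433 was the lowest counted member inside the Rtl1 coding exon. It had 6156 counts in replicate 1 and 6913 in replicate 2, or 1028 and 1036 CPM, a mean of 1032 ± 5.40 CPM. With this scaling the level of Mir433 differed little between the pools, as did that of its neighbour Mir127, 1007 bases downstream. Within a library Mir127 exceeded Mir433 by 3.14 in replicate 1 and 3.13 in replicate 2 on the log2 scale. That was the smallest spread among the 21 pairs of members (SD 0.0094), which were all looked at.

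The 3 members outside Rtl1 lie close together and stepped down along the strand. Mir337 had 9210 counts (1538 CPM) in replicate 1 and 10745 counts (1610 CPM) in replicate 2, a mean of 1574 ± 50.7 CPM. Mir540, starting 194 bases after the end of Mir337, had 3720 counts (621 CPM) and 3992 counts (598 CPM), a mean of 610 ± 16.4 CPM. Mir665, 167 bases further on, had 2526 counts (422 CPM) and 2459 counts (368 CPM), a mean of 395 ± 37.8 CPM. The order Mir337, Mir540, Mir665 was the same in both pools and the ranges did not overlap.

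**Figure D1:**
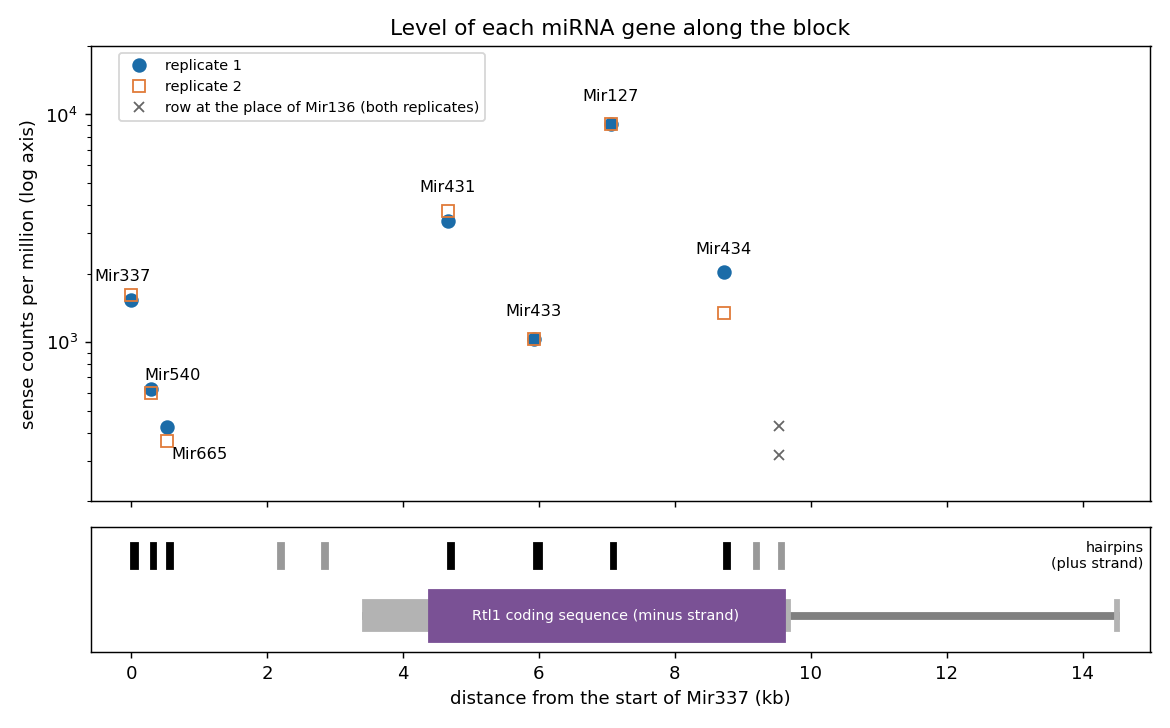
CPM of sense-strand counts on a log axis (circles, replicate 1; squares, replicate 2; crosses, the row at the place of Mir136 in both) of the 7 counted members against distance in kb from the start of Mir337, above the annotated hairpins of the plus strand (black, counted members; grey, other annotated genes) and Rtl1 on the minus strand (purple, coding sequence; grey, untranslated exon parts and intron). Mir127, inside the Rtl1 coding exon, is highest at 9058 and 9041 CPM, levels do not change evenly along the block, and of the 7 members Mir434 shows the widest gap between the pools.

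The 4 counted members inside the Rtl1 coding exon held most of the block's reads. They took 85.7% of its counts in replicate 1 and 85.5% in replicate 2, against 14.3% and 14.5% for the 3 members outside Rtl1. As a share of all sense counts, the members inside held 1.54% ± 0.0225 (SD, n = 2) and those outside 0.258% ± 0.000345. Most of this is Mir127, and the groups overlapped in level: Mir337 outside, at 1574 CPM, lay above Mir433 inside, at 1032 CPM.

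Ordered by mean level, the members ran Mir127, Mir431, Mir434, Mir337, Mir433, Mir540 and Mir665. For 5 of the 6 pairs of neighbours in this order the ranges of the pools did not overlap. Mir431 exceeded Mir434 by 0.73 on the log2 scale in replicate 1 and by 1.50 in replicate 2, Mir337 exceeded Mir433 by 0.61 ± 0.04, Mir433 exceeded Mir540 by 0.76 ± 0.05, and Mir540 exceeded Mir665 by 0.63 ± 0.10 (SD, n = 2). Mir434 and Mir337 were the exception and changed places: Mir434 stood above Mir337 by 0.41 in replicate 1 (95% exact Clopper-Pearson interval 0.37 to 0.45) and below it, at -0.27, in replicate 2 (-0.31 to -0.23). Their mean levels therefore do not differ beyond the spread between the pools.

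**Figure D2:**
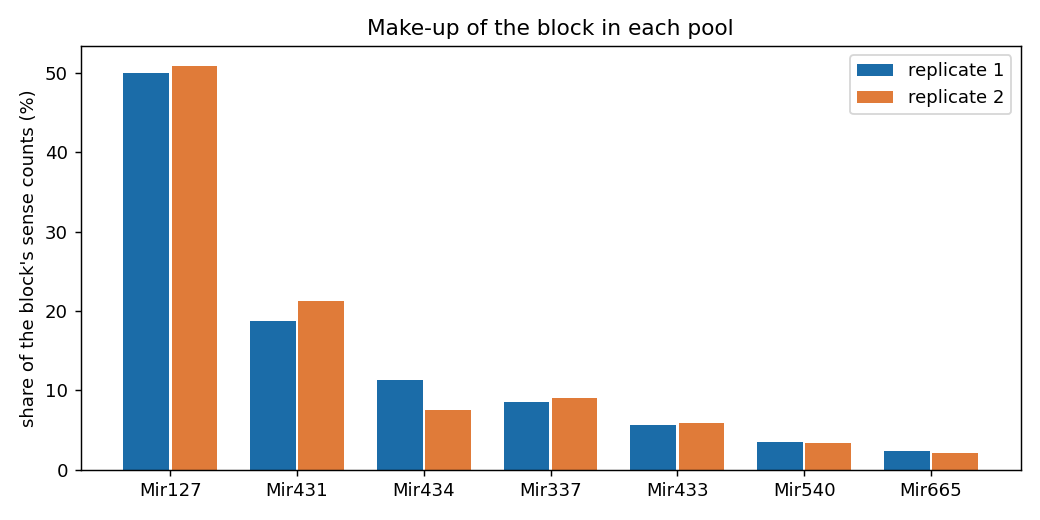
Share of the block's sense counts (%) held by each counted member, in order of mean level, with replicate 1 and replicate 2 side by side. The make-up of the block is alike in the pools except for Mir434, at 11.3% in replicate 1 and 7.53% in replicate 2, and Mir431, at 18.7% and 21.3%.

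Between the pools, Mir434 moved more than any other member. Each ratio is the log2 of CPM + 1 in replicate 1 over that in replicate 2, so a positive value means more in replicate 1. The median ratio of the 7 members was 0.00, against 0.11 over the 466 genes tested, and the median size of the ratio, sign ignored, was 0.07 in the block and 0.27 over all genes tested. With edgeR's TMM scaling these sizes were 0.14 and 0.24, and with DESeq2 size factors 0.17 and 0.24, so the gap between block and table depends on the scaling. Of the 7 members, 6 lay within 0.5 of 0, as did 78.3% of the genes tested. With TMM or DESeq2 size factors all 7 did, as did 79.2% and 79.0% of the genes tested.

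By a two-sided exact binomial test with Benjamini-Hochberg adjustment over all genes tested and a limit of 1 on the log2 scale, 0 of the 7 members differed between the libraries. Of the genes tested, 5.79% did. With no limit on size, where this deep counting passes 46.4% of genes, 4 of the 7 members had an adjusted p under 0.05: 2 were higher in replicate 1, as were 33.3% of the genes tested, and 2 lower, as were 13.1%. The test compares these libraries, not conditions. The exact test of edgeR passed 0 members, 0 had an unadjusted p under 0.05, and it passed 0.858% of the genes tested. Its dispersion (a coefficient of variation of 0.201) came from these 2 libraries themselves and so takes in the differences under test. Ratios of the members' size could hardly pass it, so this result adds no support.

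The ratios of single members show which of them moved. Mir434 was higher in replicate 1 by 0.61 (95% exact interval 0.57 to 0.65; adjusted p = 7.89e-203 by the exact binomial test, adjusted p = 1 by edgeR's exact test). With TMM its ratio was 0.48 and with DESeq2 size factors 0.45, still the largest of the 7. At the scaling used here, ratios at least that large in size were seen in 80 of the 466 genes tested, or 17.2%. Mir665 was higher in replicate 1 by 0.19 (0.11 to 0.28; exact binomial adjusted p = 6.48e-06), but with edgeR's TMM scaling its ratio was 0.07 (adjusted p = 0.182). Mir431 was lower in replicate 1, at -0.16 (-0.18 to -0.13; exact binomial adjusted p = 1.92e-30), and Mir337 at -0.07 (-0.11 to -0.03; exact binomial adjusted p = 0.0036).

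The remaining members had ratios close to 0 with this scaling. Mir127 had 0.00 (95% exact interval -0.01 to 0.02), Mir433 -0.01 (-0.06 to 0.04) and Mir540 0.05 (-0.01 to 0.12), and none of these 3 passed the exact binomial test at any size. The scaling matters for such small values: TMM lowers every ratio by 0.13, which puts Mir127 at -0.13, Mir433 at -0.14 and Mir540 at -0.07. With TMM, 5 members pass with no limit on size, 1 higher and 4 lower in replicate 1. Over all genes tested 44.4% then pass, 21.9% higher and 22.5% lower. With DESeq2 size factors 6 members pass, 1 higher and 5 lower, against 46.6% of the genes tested, 21% higher and 25.5% lower.

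Ratios within a library do not depend on the scaling, and they single out Mir434 too. Over the 6 pairs that hold Mir434, the SD of the log2 difference between the pools had a median of 0.43 (0.29 to 0.54). Over the 15 pairs of other members the median was 0.10 (0.0094 to 0.25). This split was made after the values were seen and is a description.

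The liver marker, a single gene, and the 3 red cell markers stood higher in replicate 1. That direction was common: 27 genes passed the exact binomial test with the limit of 1 on the log2 scale. Of these, 24 were higher in replicate 1, the liver and red cell markers among them. The liver miRNA gene Mir122 was at 2445 CPM in replicate 1 and 757 CPM in replicate 2, and the 3 red cell genes held 0.0727% of counts in replicate 1 and 0.0345% in replicate 2. Their part in the difference at Mir434 was not tested. The sum over the 8 epithelial genes was 7.36% for replicate 1 and 7.82% for replicate 2, but that direction rests on Mir375 alone, at 12876 CPM in replicate 1 and 23221 CPM in replicate 2. Without it the other 7 held 6.07% in replicate 1 and 5.50% in replicate 2, and 5 of these 7 had the higher CPM in replicate 1.

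**Figure D3:**
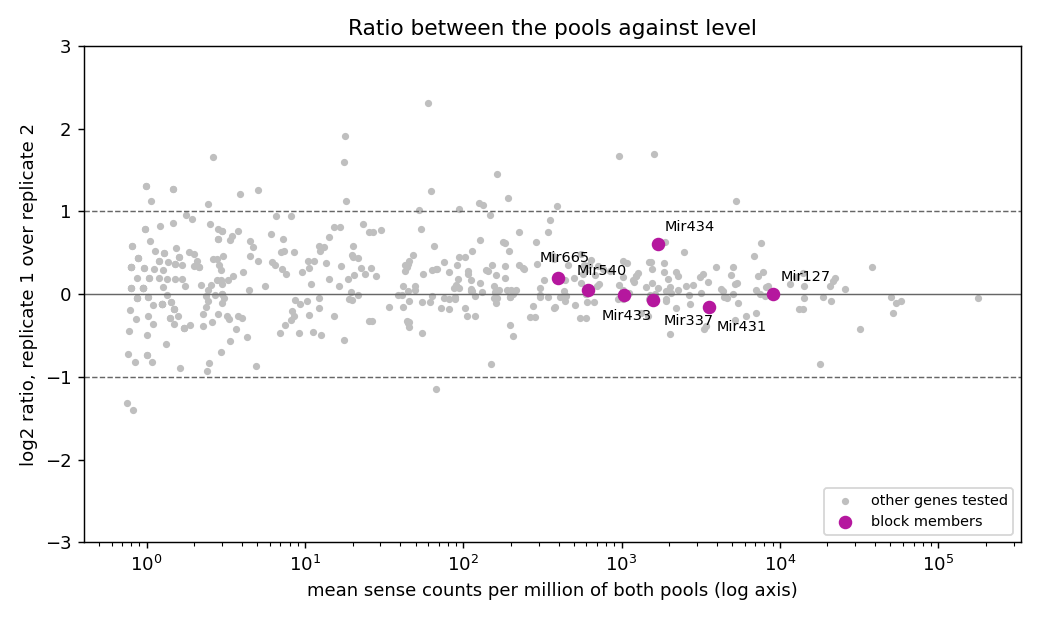
Log2 ratio of replicate 1 over replicate 2 (with 1 CPM added) against mean CPM of sense counts on a log axis for the 466 genes tested, with block members in magenta and dashed lines at a ratio of 1 in size. Of the 7 members, 6 lie near 0 and Mir434, at 0.61, stands above them but inside the dashed lines.

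Other annotated hairpins inside the block were nearly silent by these counts. Mir3070a had 7 counts in replicate 1 and 9 in replicate 2, and Mir3070b had 1 and 4. RefSeq gives both the same mature miR-3070-5p, and reads matching several places are not among the gene counts, so their levels are uncertain. Mir432, which lies between Mir434 and Mir136 inside the Rtl1 coding exon, had 0 counts in both libraries, which allows up to 0.501 CPM in replicate 1 and 0.449 CPM in replicate 2. The annotated hairpins of the block thus ranged from 0 counts to 9049 CPM.

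At the place of Mir136 the tables list 1 row, identifier ENSMUSG00000070129, that GENCODE M21 names Mir3071, a minus-strand hairpin that covers Mir136 on the other strand. It had 2568 counts in replicate 1 and 2126 in replicate 2, or 429 and 318 CPM, a mean of 374 ± 78.0 CPM (SD, n = 2). Of its counts, 3 in each library fell on the opposite strand. The row has version 1 in the tables and version 2 in GENCODE M21, and the strand it had in the annotation used for counting is not given in the sources used here. Whether these reads are miR-136 or miR-3071 therefore cannot be told apart, and the row is left out of all sums above. Its log2 ratio was 0.43 (95% exact interval 0.35 to 0.51), with the same sign as that of Mir434. The mature forms involved are antisense to each other over most of their length.
miR-136-5p: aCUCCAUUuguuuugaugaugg
miR-3071-3p: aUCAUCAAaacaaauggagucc

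Within the Dlk1-Dio3 region, over 51 listed miRNA genes of the region, including the block, it held 25.7% of the counts in replicate 1, with a 95% Wilson interval of 25.5 to 25.8, and 26.1% in replicate 2, with an interval of 26.0 to 26.2. Mir127 was the second most abundant of these genes, after Mir411 of the distal cluster at 11624 ± 707 CPM (SD, n = 2). Mir431 was at place 8, Mir434 at 10, Mir337 at 11 and Mir433 at 15. The 51 genes include the 4 other listed hairpins of the block, among them the row at the place of Mir136. The shares count these 4 in the total but not in the block.

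These shares and places leave out 5 distal genes with no row of their own. For 4 of them, a listed row that GENCODE M21 places on the other strand held reads on its opposite strand: Mir409 at 7055 ± 747 CPM, Mir376a at 2940 ± 735 CPM, Mir299a at 1835 ± 283 CPM and Mir380 at 772 ± 96.2 CPM (SD, n = 2 each). Which gene these reads come from was taken from GENCODE M21 alone. With them counted, the block's share of the region fell to 21.7% in replicate 1 and 22.1% in replicate 2. Mir127 was again second, but Mir431 was at place 9, Mir434 at 13, Mir337 at 14 and Mir433 at 18.

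Levels along the rest of the region ranged widely. Upstream of the block, Mir770, Mir673 and Mir493 stood between 73.6 and 133 CPM in either pool, and the highest, Mir673, at 127 ± 8.08 CPM. Between the blocks the highest was Mir341 at 683 ± 77.8 CPM. Of the members 5 of 7 reached 1000 CPM, against 10 of the 33 listed genes of the distal cluster, or 13 of 37 with the other-strand reads above. The median was 1574 CPM over the members and 308 CPM over the listed distal genes, or 362 CPM over the 37. These sets are built unlike. The distal list keeps nearly silent genes such as Mir453 at 0 CPM and Mir654 at 0.0749 CPM. The members leave out the block's own, Mir3070a at 1.26 CPM, Mir3070b at 0.383 CPM and Mir432 at 0 CPM. They also leave out the row at the place of Mir136, at 374 CPM. Part of the contrast therefore comes from the choice of lists.

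Of the other 39 genes of the region tested, 1 passed the exact binomial test with the limit of 1 on the log2 scale, Mir495 of the distal cluster, which was higher in replicate 1 and was named after its value was seen; over all genes tested 5.79% passed. With no limit on size 24 of the 39 passed, 19 higher and 5 lower in replicate 1, against 46.4% of all genes tested. Their median log2 ratio was 0.13 and its median size 0.24, close to the 0.27 over all genes tested. The 39 include 2 genes inside the block by position, Mir3070a and the row at the place of Mir136. The distal genes had 1 of 31 called, the upstream and intermediate genes 0 of 6.

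**Figure D4:**
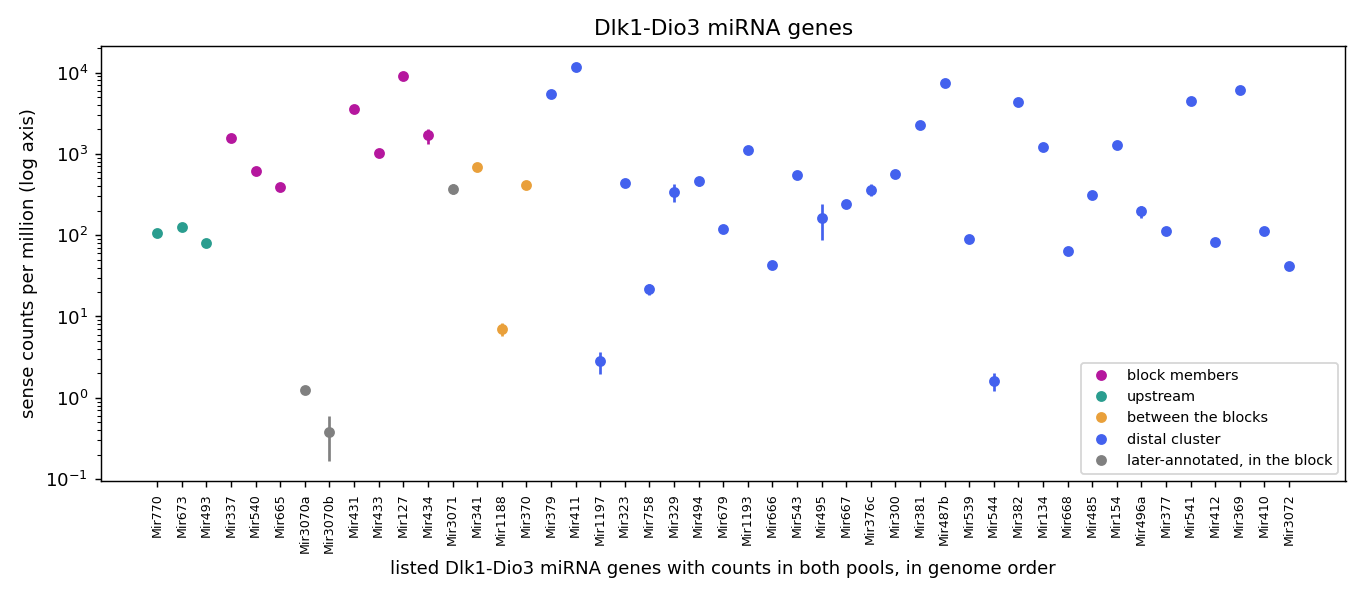
Mean CPM of sense counts on a log axis (dots) with the range of the pools (lines) for the listed Dlk1-Dio3 miRNA genes with counts in both pools, in genome order and coloured by their part of the region. The block members lie between 395 CPM (Mir665) and 9049 CPM (Mir127), above the upstream genes and within the range of the distal cluster.

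By sense counts, the genes outside the region nearest above Mir127 in mean level were Mirlet7d (13121 ± 1159 CPM) and Mir21a (12668 ± 1309 CPM). Nearest below it were Mir652 (8459 ± 414 CPM) and Mir93 (8210 ± 344 CPM) (SD, n = 2 each). The SD of Mir127 between the pools was 11.8 CPM at this scaling, below that of any of these 4. That order depends on the scaling: with TMM the SD of Mir127 was 559.5 CPM, above those of Mir21a (511 CPM), Mir93 (174 CPM) and Mir652 (119.7 CPM), and below that of Mirlet7d (1989 CPM). With 2 libraries no likeness of pattern across conditions could be measured.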

How the data were processed

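MicroRNA-seq of 2 libraries was used, both from pooled mouse embryonic stomach. The authors deposited 1 table of raw read counts per miRNA gene for each library, on mm10 with GENCODE M4 per the deposited description files. Aligner and counter: not given in the sources used here. No header names the 3 count columns; in gene rows the first is the other 2 added up, and the second was read as sense. Lines naming no gene (reads matching several places were 25.5% and 27.0% of all reads, unmapped reads 18.0% and 16.2%, reads outside listed genes 2.92% and 2.26%) were left out of totals. Every level of a member rests on at least 2459 reads in each library.

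Symbols and coordinates come from GENCODE M21, matched by identifier without version (1894 of 1973). Each gene with at least 10 summed counts (466 genes) was tested between the libraries by an exact conditional binomial test; a call needed a log2 ratio past 1 in either direction with an adjusted p under 0.05. edgeR's quasi-likelihood test could not be fitted to 1 library against 1. SD are over 2 pools; p-values measure the difference between these libraries. The test was tried on simulated counts. Members, lists and the rule for named genes (the 8 members, the 2 genes outside the region next above and below the highest in mean CPM, other hairpins of the block, and the highest gene of each other part) were chosen with earlier results of these data known. Other scalings, minimums, fold limits, pseudocounts, strand columns and denominators were tried, as was dropping each replicate. Software: edgeR 4.0.16 and DESeq2 1.42.0 (size factors only) in R 4.3.3, and scipy 1.17.1, numpy 2.4.6, matplotlib 3.10.9 and pandas 2.3.3 in Python 3.11.15.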

Additional observations from a re-analysis of the deposited data

Results flagged for a closer look

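Signal stood outside the sense counts of the members. On the opposite strand Mir337 had 36 counts (replicate 1) and 31 (replicate 2), above the limit of 3 counts that a count of 0 allows; it was the only counted member with any. GENCODE M21 and RefSeq place Mir3544, which the tables do not list, on the minus strand inside Mir337. The row at the place of Mir136, which enters no sum of the members, had 2568 counts in replicate 1 and 2126 in replicate 2.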

How the results depend on the processing

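All 7 members kept at least 10 counts under every count minimum and strand setting tried. Of them, 0 were called with TMM, DESeq2 size factors, either count minimum or scaling to the Dlk1-Dio3 list, and 4 with no fold limit. With edgeR's exact test 0 were called, but its dispersion came from the same 2 libraries, so ratios of this size could hardly pass. The genes called over the whole table went from 27 to 16 with at least 100 summed counts (fewer genes tested), 4 with edgeR's exact test and 216 without a fold limit. The block's share of 1.79% became 0.938% of all reads, 1.74% with both strands, 3.84% without the 10 most abundant genes in the total and 1.83% with the row at the place of Mir136; the denominators differ by construction. The block's share of the region's counts fell to 14.7% without Mir127 and to 21.9% with the other-strand reads of distal genes that have no row. The median log2 ratio of members became -0.13 with TMM and -0.15 with DESeq2 size factors, -0.047 scaled to the Dlk1-Dio3 list and 0.029 with the row at the place of Mir136, the last 2 settings chosen after seeing the data, as were leaving out Mir127 and adding other-strand reads. The median size of the members' ratios became 0.14 with TMM and 0.17 with DESeq2 size factors, looked at after seeing the data. Ratios that changed sign were those of Mir127 (-0.13 with TMM, -0.15 with DESeq2 size factors) and Mir540 (-0.074 and -0.10). Leaving out either replicate gave medians of 1338 to 1538 CPM, below the 1574 CPM of the mean levels. Spans were then 4.42 to 4.61, shares 1.78% to 1.81% and shares of the region 25.7% to 26.1%. No paired analysis was possible because there is a single group. Depth did not limit the members; it limits Mir3070a, Mir3070b and Mir432.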
